A study of Mus musculus with 6 samples.

Results

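Transcripts of 42 cell cycle and proliferation genes were compared in fetal mouse hearts whose mothers had inhaled titanium dioxide nanoparticles or filtered air. The genes were taken from a list by name and sorted by the phase in which their products act: 11 in G1, 12 in S and 19 in G2/M. All 42 were found among the 35411 genes of the annotated files, and all passed the filter on low counts that left 13928 genes for testing.

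The nano-TiO2 group holds 3 libraries of hearts from wild-type FVB/NJ fetuses whose dams breathed an aerosol of engineered titanium dioxide nanoparticles. The target was 12 mg/m3 for 360 minutes a day on 6 non-consecutive days spread over 8 days, starting on gestational day 5. The sham group holds 3 libraries of wild-type FVB/NJ fetal hearts whose dams were exposed to filtered room air instead. In both groups the hearts were collected on gestational day 15 and pooled before RNA extraction, and 14 dams aged 10 weeks entered the study. All 6 are the input libraries of an m6A immunoprecipitation, made from fragmented total RNA without antibody, and they measure transcript abundance. How many hearts or litters stand behind each pool is not given in the sources used here, and the p-values describe the spread among the pools alone.

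A dividing cell first commits to replication in G1, when D-type cyclins with the kinases Cdk4 and Cdk6 phosphorylate the retinoblastoma protein and release E2F transcription factors. In S phase the licensed Mcm helicase unwinds the origins and DNA is copied, and in G2 and M the kinase Cdk1 with B-type cyclins drives entry into mitosis until the anaphase-promoting complex, activated by Cdc20, ends it. Fetal heart muscle cells still divide, and most of them leave the cycle soon after birth in the mouse.

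Salmon assigned 12881945 to 21553478 estimated reads to transcripts in the nano-TiO2 libraries and 17152365 to 22720009 in the sham libraries. The 42 genes took 0.444%, 0.597% and 0.441% of the reads in nano-TiO2 1, 2 and 3, against 0.521%, 0.401% and 0.416% in sham 1, 2 and 3. Haemoglobin took 5.68% to 10.2% in nano-TiO2 and 10.6% to 23.4% in sham libraries. Cardiomyocyte markers summed to 35555 to 40632 TPM (transcripts per 1000000, a level per transcript length) in nano-TiO2 and 29167 to 33132 in sham libraries, and all 10 of them were present. Markers of blood and of neighbouring organs were uneven. The 10 erythroid markers summed to 54679 to 77450 TPM in nano-TiO2 and 69117 to 176197 in sham libraries with the maximum in sham 2. The 7 hepatocyte markers summed to 3.14 to 27.8 TPM in nano-TiO2 and 19.9 to 648 TPM in sham libraries with the maximum again in sham 2. The 6 lung epithelial markers summed to 0.823 to 2608 TPM in nano-TiO2 and 16.0 to 187 TPM in sham libraries with the maximum in nano-TiO2 3. Endothelial markers summed to 151 to 192 TPM in nano-TiO2 and 89.5 to 126 TPM in sham libraries. Fibroblast markers summed to 892 to 965 TPM in nano-TiO2 and 467 to 676 TPM in sham libraries. Neither list overlapped, and nor did the cardiomyocyte list. Of 11933 genes, 47.2% had every nano-TiO2 library above every sham library in TPM. In the main fit described below, the median log2 fold changes of the endothelial, fibroblast and cardiomyocyte markers were 0.02, 0.15 and -0.23. Macrophage markers summed to 45.1 to 72.9 TPM in nano-TiO2 and 41.5 to 55.7 TPM in sham libraries. None of the markers was under 1 TPM in every library, and their part in the results was not tested. In pooled tissue, fewer dividing cells and less RNA per dividing cell cannot be told apart.

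Across the cell cycle list, cyclin D2, Cdk6 and topoisomerase II alpha transcripts were higher in nano-TiO2 hearts, while cyclin D3, E2f2, Mcm5, Cdk1, Cdc20, Plk1 and Aurka were lower and the other 32 genes did not pass. These calls are those of edgeR's quasi-likelihood test at a Benjamini-Hochberg adjusted p under 0.05 over all tested genes, on counts per 1000000 (CPM) scaled by the trimmed mean of M-values (TMM), which sets the typical gene near no change. The 3 higher members are 7.14% of the list, where 15.5% of all tested genes were called higher, and the 7 lower members are 16.7%, where 12.8% of all tested genes were called lower. DESeq2 on the same reads called 6 higher and 12 lower (background 17.8% and 16.5%) and limma-voom 3 higher and 7 lower (15.3% and 12.9%). DESeq2 added Rb1, Mcm4 and Kif11 above and Cdk4, Cdt1, Mcm2, Mcm7 and Ccnb2 below. The lower calls of limma-voom held Mcm2 in place of E2f2. In 8 members every nano-TiO2 library lay above every sham library and in 10 every one lay below, where 23.3% and 22.4% of all tested genes did so; the groups overlapped in the other 24. The directions are relative to the median gene: with library totals as the only scaling the median gene lay 0.41 higher on the log2 scale in nano-TiO2, 11 members were called higher and 0 lower by edgeR (1 lower at an unadjusted p under 0.05), beside 30.7% and 0.359% of all genes.

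**Figure D1:**
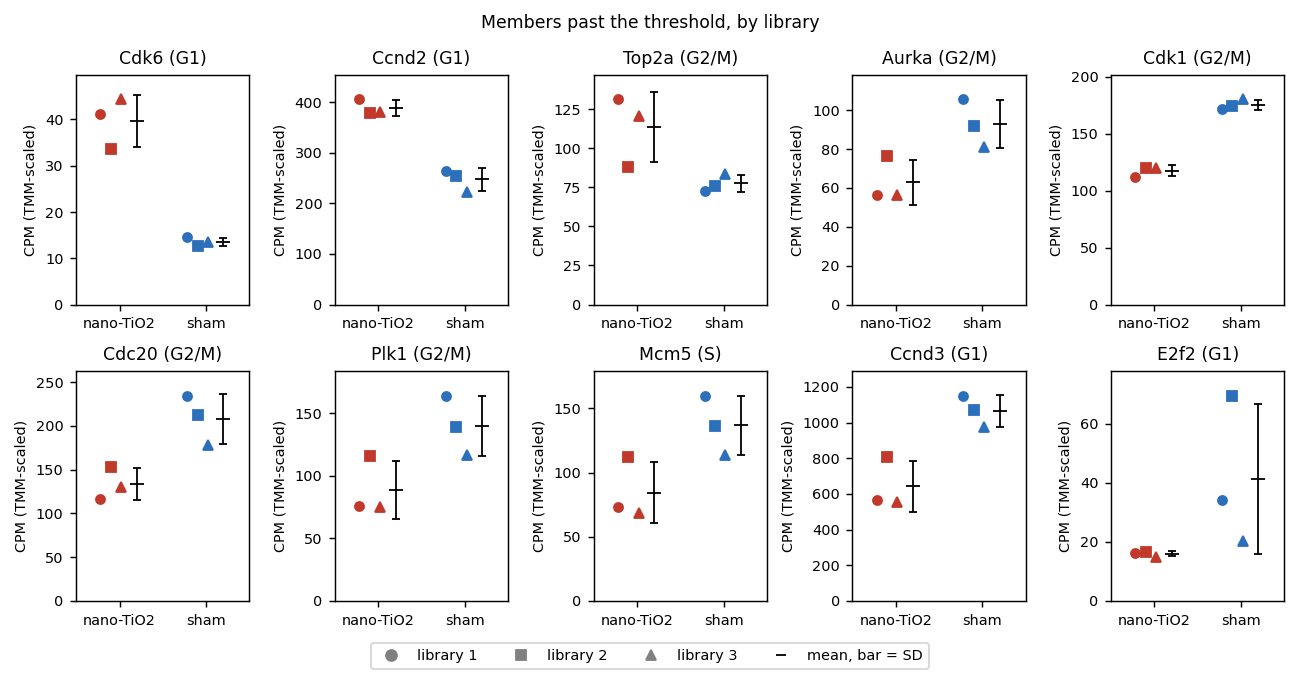
TMM-scaled CPM of the 10 members past the threshold, 1 panel a gene with its phase, nano-TiO2 left (red) and sham right (blue); each symbol is 1 library, and the bars give mean ± SD of the 3 libraries in a group. The groups do not overlap in any panel, Cdk6 has the widest gap relative to its level, and in E2f2 sham 2 stands at 69.5 CPM, far above sham 3 at 20.3 CPM.

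In G1 Cdk6 and Ccnd2 rose in nano-TiO2 hearts, and Ccnd3 and E2f2 fell. Cdk6, a kinase that partners the D-type cyclins, stood at 41.2, 33.6 and 44.4 CPM in nano-TiO2 1, 2 and 3, against 14.5, 12.6 and 13.4 CPM in sham 1, 2 and 3. It averaged 39.7 ± 5.56 CPM in nano-TiO2 and 13.5 ± 0.963 CPM in sham hearts (SD, n = 3 each), which is 1.55 ± 0.16 on the log2 scale (SE, edgeR adjusted p = 0.0063). Every nano-TiO2 library held more than every sham library, and this was the largest upward difference among the 42 members. Ccnd2, the cyclin D2 gene, had 406, 378 and 381 CPM in nano-TiO2 1, 2 and 3, against 265, 255 and 222 CPM in sham 1, 2 and 3. Its log2 fold change was 0.65 ± 0.12 (SE, edgeR adjusted p = 0.00911), and again the groups did not overlap. Ccnd3, the cyclin D3 gene, went the other way, with 566, 806 and 554 CPM in nano-TiO2 1, 2 and 3, against 1152, 1071 and 974 CPM in sham 1, 2 and 3. All 3 nano-TiO2 libraries lay below all 3 sham libraries, and nano-TiO2 2 came nearest to them. The log2 fold change of Ccnd3 was -0.73 ± 0.17 (SE, edgeR adjusted p = 0.0176).

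Ccnd1, the cyclin D1 gene, averaged 161 ± 24.3 CPM in nano-TiO2 and 161 ± 1.61 CPM in sham hearts (SD, n = 3 each), with 134, 180 and 169 CPM in nano-TiO2 1, 2 and 3, against 163, 162 and 159 CPM in sham 1, 2 and 3. Its groups overlapped and its log2 fold change was 0.00 ± 0.14 (SE). Per transcript length, the 3 D-type cyclins stood in the order Ccnd3, Ccnd2, Ccnd1 in both groups: Ccnd3 had 505 ± 183 TPM in nano-TiO2 and 514 ± 101 TPM in sham hearts, Ccnd2 had 285 ± 33.1 TPM in nano-TiO2 and 128 ± 24.4 TPM in sham hearts (SD, n = 3 each), and Ccnd1 had 54.4 to 90.9 TPM in nano-TiO2 and 36.8 to 47.7 TPM in sham libraries. Cdk4, the other partner kinase, was the most abundant of the G1 members in TPM summed over all transcripts, at 623 ± 229 TPM in nano-TiO2 and 576 ± 147 TPM in sham hearts, where its spread overlapped that of Ccnd3. Protein-coding transcripts held 62.5% of the Cdk4 reads and 99.3% of the Ccnd3 reads, and the order among coding transcripts alone was not tested. In reads Cdk4 had 320, 470 and 342 CPM in nano-TiO2 1, 2 and 3, against 627, 556 and 452 CPM in sham 1, 2 and 3. Here nano-TiO2 2 overlapped sham 3, and the log2 fold change of -0.53 ± 0.18 (SE) did not pass in edgeR (adjusted p = 0.0613), though it did in DESeq2. Cdk6 was far less abundant than Cdk4, at 5.21 ± 0.618 TPM in nano-TiO2 and 1.66 ± 0.689 TPM in sham hearts.

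E2f2 encodes an activating E2F transcription factor that is also known from red cell maturation in the mouse. Its libraries stood at 16.3, 16.6 and 15.0 CPM in nano-TiO2 1, 2 and 3, against 34.1, 69.5 and 20.3 CPM in sham 1, 2 and 3, and the log2 fold change was -1.37 ± 0.39 (SE, edgeR adjusted p = 0.0353). DESeq2 also called it lower (adjusted p = 0.00145), but limma-voom did not (-1.14, adjusted p = 0.0726). The nano-TiO2 libraries lay close together and the sham libraries spread widely, with sham 2 highest. Of the 10 erythroid markers, edgeR, DESeq2 and limma-voom called 0 higher (0 at an unadjusted p under 0.05 in edgeR). They called 5, 7 and 1 lower (50%, 70% and 10%), beside 12.8%, 16.5% and 12.9% of all tested genes. With the trend over transcript length removed, as described below, edgeR called 0 of the 10 (before adjustment, 0 rose and 6 fell with p under 0.05). On library totals alone it also called 0 (before adjustment, 1 rose and 5 fell). Over all genes those 2 fits called 5.64% and 0.359% lower. Of all 10 markers, 9 had sham 2 as their highest sham library and 7 had the sham libraries in the order of E2f2, while Gata1, Rhag and Tfrc did not. Their part in the E2f2 result was not tested. Without sham 2 the log2 fold change of E2f2 was -0.73 (edgeR adjusted p = 0.090, within 0.0136 to 0.117 over the 6 fits that each leave out 1 library). The remaining G1 members did not pass. Rb1, which encodes the retinoblastoma protein, had 8.48, 3.40 and 7.41 CPM in nano-TiO2 1, 2 and 3, against 2.59, 4.13 and 2.76 CPM in sham 1, 2 and 3, with overlapping groups and a log2 fold change of 1.04 ± 0.37 (SE, edgeR adjusted p = 0.0686). E2f1 stood at -0.73 and the cyclin E genes Ccne1 and Ccne2, which activate Cdk2 at the entry to S phase, at -0.58 and -0.13. Cdk2 itself stood at -0.04.

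In S phase edgeR called 1 of 12 members lower (5 at an unadjusted p under 0.05) and 0 higher (2 at an unadjusted p under 0.05). These are 8.33% lower and 0% higher, beside 12.8% and 15.5% of all tested genes. DESeq2 called 4 lower and limma-voom 2 (33.3% and 16.7%, beside 16.5% and 12.9% of all tested genes), and they called 1 and 0 higher. The one called lower by edgeR was Mcm5, a subunit of the replicative helicase, with 73.2, 112 and 68.3 CPM in nano-TiO2 1, 2 and 3, against 160, 136 and 114 CPM in sham 1, 2 and 3. Its highest nano-TiO2 library, nano-TiO2 2, lay just below its lowest sham library, sham 3. The log2 fold change was -0.70 ± 0.21 (SE, edgeR adjusted p = 0.0406). Mcm2, another helicase subunit, had 102, 163 and 99.1 CPM in nano-TiO2 1, 2 and 3, against 202, 184 and 158 CPM in sham 1, 2 and 3. Its pattern was the same with nano-TiO2 2 inside the sham range. Its log2 fold change of -0.58 ± 0.20 (SE) did not pass in edgeR (adjusted p = 0.0642), though it did in DESeq2 and limma-voom (adjusted p = 0.0280 and 0.04996). Mcm3 and Mcm7 gave -0.45 and -0.56, also with nano-TiO2 2 as the highest of their nano-TiO2 libraries, while Mcm6 stood at -0.05 and Mcm4 at 0.56 with all its nano-TiO2 libraries (45.8 to 56.6 CPM) above its sham libraries (28.4 to 44.9 CPM). As counted, the 6 subunits of 1 hexamer thus ranged over more than a log2 unit. With the trends over transcript length and GC content removed, as described below, they ranged from -0.50 (Mcm5) to -0.02 (Mcm4).

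Pcna, the sliding clamp of DNA polymerase, had 112, 108 and 111 CPM in nano-TiO2 1, 2 and 3, against 121, 144 and 137 CPM in sham 1, 2 and 3. The groups did not overlap, but the log2 fold change of -0.28 ± 0.12 (SE) did not pass (edgeR adjusted p = 0.101). The licensing factors Cdc6 and Cdt1, which load the helicase, stood at -0.26 and -0.56. Of the nucleotide enzymes, the ribonucleotide reductase subunits Rrm1 and Rrm2 stood at 0.36 and 0.21 and thymidylate synthase, Tyms, at -0.30. The reads of Tyms were split over 9 transcripts. Its longest protein-coding transcript, of 3163 bases, had 13.0, 17.5 and 14.5 CPM in nano-TiO2 1, 2 and 3, against 26.0, 21.3 and 22.1 CPM in sham 1, 2 and 3, and an intron-retaining transcript of 2723 bases had 13.0, 12.2 and 7.40 CPM in nano-TiO2 1, 2 and 3, against 4.30, 3.72 and 4.16 CPM in sham 1, 2 and 3. The groups did not overlap for either transcript, in opposite directions. The share of all transcripts that did so was not counted, and Tyms was added after its values were seen. A second intron-retaining Tyms transcript, of 816 bases, had overlapping groups. It stood at 4.47, 2.36 and 4.25 CPM in nano-TiO2 1, 2 and 3, against 7.35, 0.0 and 10.1 CPM in sham 1, 2 and 3. How Salmon divides reads that these transcripts share was not tested. For most other members 1 transcript held more than 70% of the reads; Cdk4 and Cdk2 were divided like Tyms, with leading transcripts at 34.3% and 55.5%.

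Promoters of several S members held the E2F motif, to which E2F factors bind. RefSeq promoter windows (250 bases before to 50 after the transcription start, build GRCm38.p6) were found for 32 of the 42 members, 11 of them in S. The motif was searched as TTTGGCGC, TTTGCCGC, TTTCGCGC or TTTCCCGC on both strands and was found for 6 of 11 S members, 2 of 7 G1 members and 1 of 14 G2/M members, where 2.26% of all 32851 windows held it. Mcm5, the S member that passed, is shown with its E2F, CHR (described with the G2/M members) and CCAAT matches in capitals; TTTCGCGC on this strand and TTTGGCGC on the other overlap in the stretch TTTCGCGCCAAA, and the other capitals are TTTAAA and 3 CCAAT boxes.
Mcm5 promoter, chr8:75109259-75109558, plus strand: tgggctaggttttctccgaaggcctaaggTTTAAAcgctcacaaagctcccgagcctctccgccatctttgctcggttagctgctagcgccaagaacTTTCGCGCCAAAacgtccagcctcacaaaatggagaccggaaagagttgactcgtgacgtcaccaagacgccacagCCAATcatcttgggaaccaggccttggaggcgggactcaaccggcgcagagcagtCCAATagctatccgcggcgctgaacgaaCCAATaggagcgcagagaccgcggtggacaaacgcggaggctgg
A match describes letters, not a bound site. All 9 members with a match had estimates below 0, as did 29 of the 42 members overall. The largest number of matches, 3, was in Mcm6, which stood at -0.05. This direction depends on the scale. Scaled by library totals alone 3 of the 9 lay above 0, and in TPM 7 did.

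In G2/M 1 member passed as higher and 4 as lower among 19 (5.26% and 21.1%, beside 15.5% and 12.8% of all tested genes). Top2a, the topoisomerase that untangles sister chromatids, had 131, 88.3 and 121 CPM in nano-TiO2 1, 2 and 3, against 72.9, 76.1 and 83.5 CPM in sham 1, 2 and 3. The lowest nano-TiO2 library, nano-TiO2 2, lay just above the highest sham library. The log2 fold change of Top2a was 0.55 ± 0.16 (SE, edgeR adjusted p = 0.0376). Cdk1, the mitotic kinase, had 112, 120 and 120 CPM in nano-TiO2 1, 2 and 3, against 171, 174 and 180 CPM in sham 1, 2 and 3. These were among the tightest groups of the list, 117 ± 4.86 CPM in nano-TiO2 and 175 ± 4.53 CPM in sham hearts (SD, n = 3 each), with a log2 fold change of -0.58 ± 0.11 (SE, edgeR adjusted p = 0.00958).

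Cdc20, the activator of the anaphase-promoting complex, had 117, 153 and 130 CPM in nano-TiO2 1, 2 and 3, against 235, 212 and 178 CPM in sham 1, 2 and 3, and a log2 fold change of -0.64 ± 0.15 (SE, edgeR adjusted p = 0.0184). Plk1, a kinase of spindle assembly and mitotic exit, had 76.1, 116 and 74.7 CPM in nano-TiO2 1, 2 and 3, against 164, 139 and 116 CPM in sham 1, 2 and 3. Its nano-TiO2 2 and sham 3 libraries all but met, and its log2 fold change was -0.66 ± 0.20 (SE, edgeR adjusted p = 0.043). Aurka, the spindle pole kinase Aurora A, had 56.2, 76.3 and 56.2 CPM in nano-TiO2 1, 2 and 3, against 106, 91.9 and 81.0 CPM in sham 1, 2 and 3, a log2 fold change of -0.56 ± 0.17 (SE, edgeR adjusted p = 0.0373). In Cdc20, Plk1 and Aurka, as in Ccnd3 and Mcm5, nano-TiO2 2 was the highest nano-TiO2 library, sham 1 the highest sham library and sham 3 the lowest.

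Of the widely used proliferation markers, Mki67, the gene of the Ki-67 protein, had 53.9, 28.7 and 42.9 CPM in nano-TiO2 1, 2 and 3, against 22.3, 31.6 and 28.3 CPM in sham 1, 2 and 3. Its groups overlapped through nano-TiO2 2 and sham 2, and the log2 fold change of 0.61 ± 0.24 (SE) did not pass (edgeR adjusted p = 0.0885). Ccnb1, the cyclin B1 gene and partner of Cdk1, had 143, 152 and 124 CPM in nano-TiO2 1, 2 and 3, against 175, 136 and 196 CPM in sham 1, 2 and 3, with overlapping groups and a log2 fold change of -0.27 ± 0.16 (SE). Foxm1, a transcription factor of mitotic genes, had 17.1, 20.1 and 22.0 CPM in nano-TiO2 1, 2 and 3, against 23.2, 22.3 and 17.7 CPM in sham 1, 2 and 3, and a log2 fold change of -0.09 ± 0.18 (SE). The other 11 G2/M members did not pass and lay between -0.32 (Ccnb2, cyclin B2) and 0.67 (Kif11, a spindle motor). Among them the kinetochore genes Cenpe and Cenpf stood at 0.04 and 0.26, the spindle checkpoint kinases Bub1 and Bub1b at -0.08 and -0.09, the Aurora B kinase Aurkb and its partner survivin, Birc5, at -0.18 and -0.25, and the motor Kif20a at -0.09. Ccna2, cyclin A2, stood at 0.25 and Cdc25c, a phosphatase that activates Cdk1, at 0.14.

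Promoters of the G2/M members shared another pair of motifs, the cell cycle genes homology region (CHR, searched as TTTGAA or TTTAAA) and the CCAAT box, both on either strand. Of 14 G2/M members with a window, 13 held a CHR match, 13 a CCAAT box and 12 both in 1 window, where 27.6%, 37.4% and 10.7% of all windows did. The pair was in 3 of 11 S members and 1 of 7 G1 members. The windows of Cdk1 and Plk1, which were lower, and of Top2a, which was higher, all held the pair and are shown with CHR, CCAAT and, in Cdk1, E2F matches in capitals (ATTGG is CCAAT and TTCAAA is TTTGAA on the other strand).
Cdk1 promoter, chr10:69352863-69353162, minus strand: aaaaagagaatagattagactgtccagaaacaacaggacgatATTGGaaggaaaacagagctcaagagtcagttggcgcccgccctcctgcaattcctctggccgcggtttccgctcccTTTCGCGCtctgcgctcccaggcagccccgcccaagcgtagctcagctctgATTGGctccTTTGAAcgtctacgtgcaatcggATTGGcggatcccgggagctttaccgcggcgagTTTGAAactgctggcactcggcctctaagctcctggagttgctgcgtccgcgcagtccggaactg
Plk1 promoter, chr7:122159185-122159484, plus strand: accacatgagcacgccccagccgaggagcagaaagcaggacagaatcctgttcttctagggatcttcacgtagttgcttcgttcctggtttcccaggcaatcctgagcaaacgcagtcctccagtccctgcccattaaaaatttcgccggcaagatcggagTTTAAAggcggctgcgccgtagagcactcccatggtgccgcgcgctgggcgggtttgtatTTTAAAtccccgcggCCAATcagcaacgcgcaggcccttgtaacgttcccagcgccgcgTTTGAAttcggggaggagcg
Top2a promoter, chr11:99024140-99024439, minus strand: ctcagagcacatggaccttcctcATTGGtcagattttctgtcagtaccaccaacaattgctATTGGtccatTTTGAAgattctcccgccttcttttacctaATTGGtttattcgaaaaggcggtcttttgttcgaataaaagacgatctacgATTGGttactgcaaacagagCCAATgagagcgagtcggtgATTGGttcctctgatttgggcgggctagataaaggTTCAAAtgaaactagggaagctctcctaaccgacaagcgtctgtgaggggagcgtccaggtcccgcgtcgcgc
Top2a had 6 CCAAT boxes and 2 CHR matches, Cdk1 3 and 2, and Plk1 1 and 3, so that holding both motifs was common to G2/M members that were called in opposite directions.

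Each phase held members on both sides of 0, and the order of the phase medians changed with the libraries used. The S median was the lowest of the 3 over all libraries, but the G1 median was lower without nano-TiO2 1 (-0.39 in G1, -0.28 in S) and without sham 1 (-0.28 in G1, -0.21 in S). The median log2 fold change was -0.13 over the 11 G1 members, -0.29 over the 12 S members and -0.09 over the 19 G2/M members, beside -0.01 over all tested genes, and the estimate was above 0 in 3, 3 and 7 members of the 3 phases. Relative to each gene's mean over all 6 libraries, the median S member stood at -0.20, 0.15 and -0.34 (log2 CPM) in nano-TiO2 1, 2 and 3, against 0.32, 0.14 and 0.00 in sham 1, 2 and 3. Nano-TiO2 2 thus sat inside the sham range, and the same was so for G1, at -0.26, 0.07 and -0.14 in nano-TiO2 1, 2 and 3, against 0.14, 0.01 and -0.01 in sham 1, 2 and 3. For G2/M the groups did not overlap, at -0.08, -0.03 and -0.14 in nano-TiO2 1, 2 and 3, against 0.19, 0.01 and 0.06 in sham 1, 2 and 3, narrowly between nano-TiO2 2 and sham 2. On library totals the 3 medians were 0.27, 0.13 and 0.33, below the 0.41 of the median gene.

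**Figure D2:**
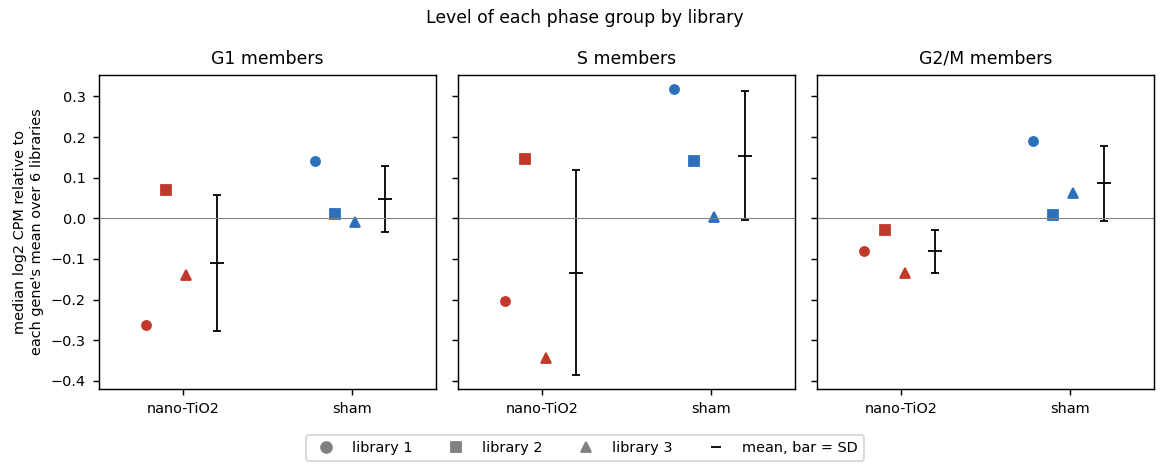
Median log2 CPM of the members of each phase relative to each gene's own mean over the 6 libraries (vertical axis), nano-TiO2 left (red) and sham right (blue), with 1 symbol a library and mean ± SD beside them. Nano-TiO2 2 lies among the sham libraries for G1 and S members, and the groups separate narrowly for G2/M members.

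The fold changes followed transcript length, in these genes as across the whole set. Length here is the length in bases in the Salmon output, averaged over a gene's transcripts by their reads. Among the 12 members under 2000 bases, 0 passed as higher in edgeR, DESeq2 and limma-voom (0 at an unadjusted p under 0.05 in edgeR) and 4 as lower in edgeR, with a median log2 fold change of -0.43 beside -0.37 over the 4503 tested genes of that length, of which 1.31% were called higher and 27.6% lower. Among the 21 members of 2000 to 4000 bases edgeR called 0 higher (3 at an unadjusted p under 0.05; DESeq2 called 2 and limma-voom 0) and 2 lower, and their median was -0.09 beside 0.05 over 5777 genes, of which 11.5% and 7.86% were called. Among the 9 members over 4000 bases 3 passed as higher and 1 as lower, and their median was 0.55 beside 0.61 over 3648 genes, of which 39.1% were called higher and 2.22% lower. All 3 members called higher are thus long: Cdk6 with 11395 bases, Ccnd2 with 5024 and Top2a with 4665. Of the 7 called lower, E2f2 has 4692 bases and the other 6 have 1374 (Cdk1) to 2665 (Mcm5). Spearman's rho of fold change with Length was 0.59 over the 42 members and 0.56 over all 13928 genes, and with GC content -0.76 and -0.57; these are descriptions across genes that share the same 6 libraries.

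**Figure D3:**
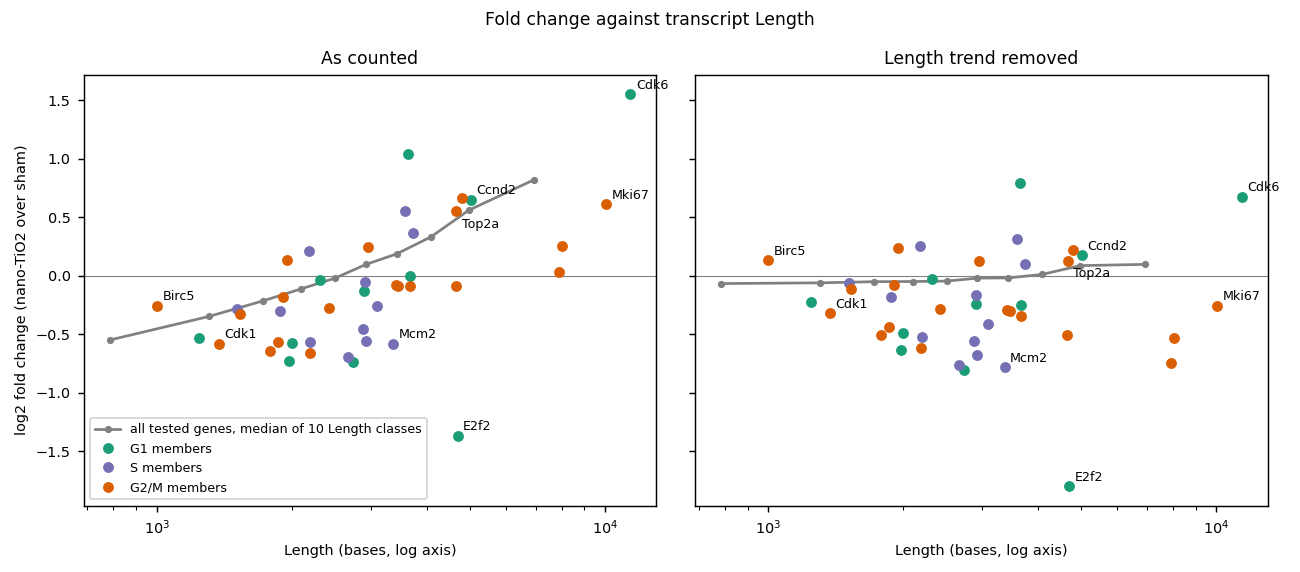
Log2 fold change (nano-TiO2 over sham) against Length on a log axis for the 42 members, coloured by phase, as counted (left) and with each library's trend over Length removed (right); the grey line joins the medians of all tested genes in 10 classes of Length. As counted the grey line lies at -0.55 in the shortest class and at 0.82 in the longest, and most members lie along or below it; with the trend removed it stays between -0.07 and 0.10, Cdk6 remains above it and E2f2 below.

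With each library's trend over Length taken out of the fit, the cell cycle calls were down to 3. Cdk6 was still higher, at 0.68 ± 0.15 (SE, edgeR adjusted p = 0.0371), below the 1.55 of the reads as counted. E2f2 was lower at -1.80 ± 0.40 (SE, edgeR adjusted p = 0.0384), and Mcm2 now passed as lower at -0.78 ± 0.20 (SE, edgeR adjusted p = 0.0469). The 1 higher and 2 lower calls are 2.38% and 4.76% of the members, where 2.82% and 5.64% of all genes were called. Ccnd3, with -0.64, and Mcm5, with -0.76, missed the threshold narrowly (edgeR adjusted p = 0.050 and 0.056). Ccnd2 stood at 0.18 (edgeR adjusted p = 0.330) and Top2a at 0.13 (edgeR adjusted p = 0.634), while Cdk1 stood at -0.32 (edgeR adjusted p = 0.094). These calls also turned on single libraries, in fits added after seeing the data. With the trend removed edgeR called 0 higher and 0 lower without nano-TiO2 1, nano-TiO2 3, sham 1 or sham 2 (1 to 3 higher and 9 to 11 lower at an unadjusted p under 0.05), 2 higher and 11 lower without nano-TiO2 2 (5.31% and 10.2% of all genes), and 0 higher (1 at an unadjusted p under 0.05) and 3 lower without sham 3 (1.37% and 4.21% of all genes). The 4 fits with no member called held 0 higher and 1 lower call each over all genes. At an unadjusted p under 0.05 they held 1099 to 1366 higher and 1619 to 2002 lower of 13969 to 14516 genes. Mki67, the second longest member with 10053 bases, had 0.61 as counted and -0.26 with the trend removed, neither of them called. The long kinetochore genes Cenpe and Cenpf had 0.04 and 0.26 as counted and -0.74 and -0.53 with the trend removed.

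By phase, the medians with the Length trend removed were -0.24 in G1, -0.30 in S and -0.29 in G2/M, beside -0.03 over all genes, and 31 of 42 estimates lay below 0. When the trend over GC content was removed as well, 37 of 42 lay below 0, the medians were -0.22, -0.42 and -0.34 beside -0.02 over all genes, and no S member was above 0. In that fit edgeR called 0 members higher (1 at an unadjusted p under 0.05) and 2 lower, Cdk1 at -0.64 ± 0.12 (SE, adjusted p = 0.0399) and Cenpe at -0.96 ± 0.19 (SE, adjusted p = 0.0464), where 0.395% and 1.18% of all genes were called. Cdk6 stood at 0.47 there (edgeR adjusted p = 0.101).

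**Figure D4:**
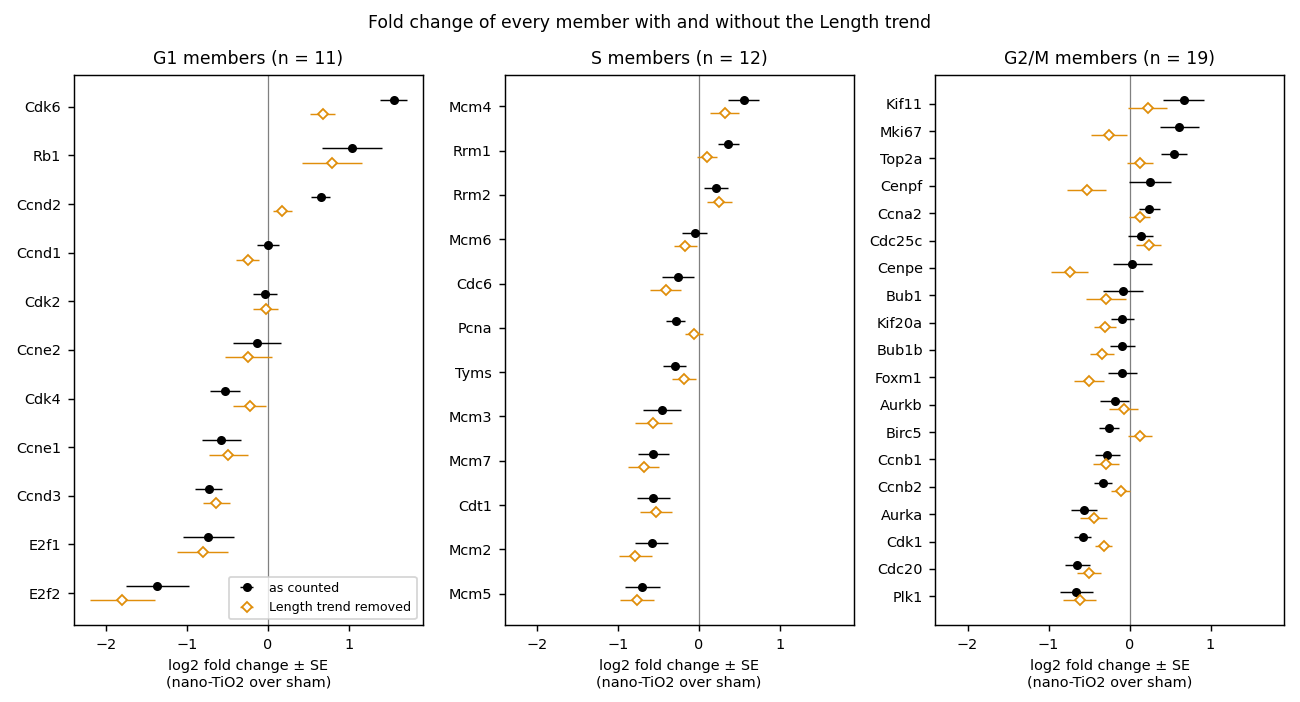
Log2 fold change ± SE (nano-TiO2 over sham) of all 42 members by phase, as counted (black circles) and with the Length trend removed (orange diamonds). Removing the trend moves the long genes Cdk6, Ccnd2, Mki67, Cenpe and Cenpf to the left by the most and the short genes Cdk4, Pcna and Birc5 to the right.

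The second source, reads recovered from the authors' table of bins along each gene, gave much the same values. The log2 fold changes of the 42 members differed between the sources by a median of 0.071 and at most 0.31, and 38 had the same sign. From the bins 6 members were called higher, Ccnd2, Cdk6, Top2a, Kif11, Mcm4 and Rrm1, and 4 lower, Ccnd3, E2f2, Cdk1 and Cdc20 (14.3% and 9.52% of members, with a background of 15.4% and 11.2%). Cdk6 stood at 1.58 there (edgeR adjusted p = 0.00388), Ccnd3 at -0.66 (edgeR adjusted p = 0.0221) and Cdk1 at -0.52 (edgeR adjusted p = 0.0113). Mcm5, Plk1 and Aurka, called on the Salmon estimates, missed in the table at -0.62, -0.57 and -0.48 (edgeR adjusted p = 0.055, 0.0629 and 0.0642). With the Length trend removed from the table's reads, Cdk6 was higher at 0.66 and Ccnd3, E2f2 and Mcm2 were lower at -0.64, -1.76 and -0.77, with a background of 3.42% and 5.50%.

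The table also shows where along a gene the reads lie. The bins of each gene were cut into 3 equal parts in 5-prime to 3-prime order. Over 10302 genes with at least 100 reads in every library the 3-prime part held a median of 38.6%, 38.5% and 42.7% of reads in nano-TiO2 1, 2 and 3, against 37.7%, 41.3% and 37.1% in sham 1, 2 and 3. For the 42 members it was 40.5%, 38.3% and 43.0% in nano-TiO2 1, 2 and 3, against 38.5%, 41.8% and 34.8% in sham 1, 2 and 3, so that nano-TiO2 3 and sham 2 had the most reads near the 3-prime end and the groups overlapped. Counting the 5-prime part only, a choice made after seeing the data, 1 member was called higher (Ccnd2) and 1 lower (Cdc20), where 6.67% and 2.96% of genes were. Counting the 3-prime part only, 5 were higher and 8 lower, where 18.1% and 14.7% of genes were. Cdk6 gave 0.66 in the 5-prime part, where it had few reads, and 1.55 in the 3-prime part, Top2a 0.28 and 0.65, and Ccnd2 0.61 and 0.80. Cdc20 gave -0.57 and -0.63 and Plk1 -0.54 and -0.65. In 40 members both end parts were tested, and 34 had the same sign in both.

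**Figure D5:**
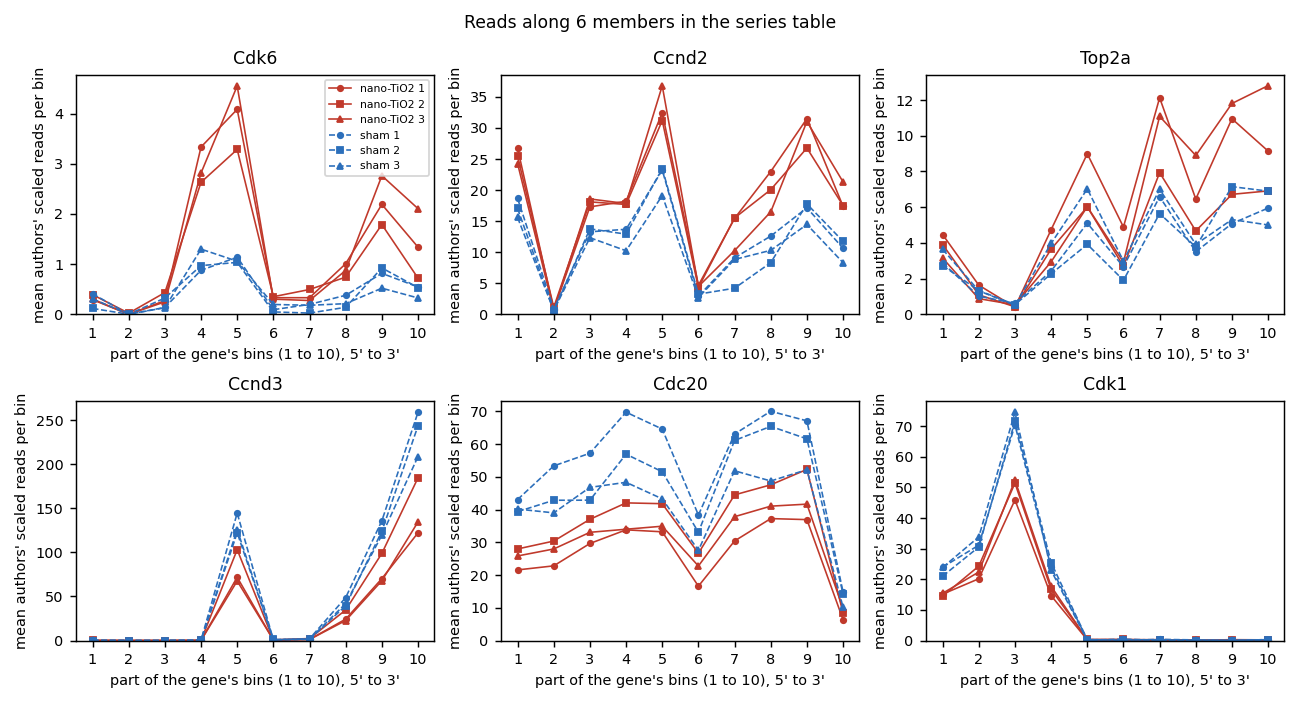
Mean of the authors' scaled reads per bin in 10 equal parts of the bins of 6 members (horizontal axis, 5-prime to 3-prime), nano-TiO2 libraries in red solid lines and sham libraries in blue dashed lines. Cdk6 and Ccnd2 lie higher in nano-TiO2, and Ccnd3, Cdc20 and Cdk1 lower, in the parts with most of their reads. Top2a separates in parts 7 and 8. In its parts 9 and 10 nano-TiO2 1 and 3 are highest, and nano-TiO2 2 lies below sham 2 in part 9 and meets it in part 10. Parts near 0 hold almost no reads in any library.

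Which library was left out decided most calls. Ccnd2, Cdk6 and Cdk1 were called in all 6 fits that left out 1 library, with log2 fold changes of 0.62 to 0.76, 1.46 to 1.66 and -0.60 to -0.52. Ccnd3, Mcm5, Cdc20, Plk1, Aurka and Top2a were called in 2 of the 6 and lost without nano-TiO2 1, nano-TiO2 3, sham 1 or sham 2, with the same sign throughout (for Ccnd3 -0.93 to -0.61). E2f2 was called in 1 of the 6, the fit without sham 3. Calls over all genes fell as well. The fits without nano-TiO2 1, nano-TiO2 3, sham 1 and sham 2 called 864, 1029, 1437 and 1083 genes higher. They called 439, 543, 553 and 366 genes lower, of 13969 to 14516 tested. The main fit called 2153 higher and 1780 lower of 13928. Without nano-TiO2 2, the library that stood nearest to the sham range, 5 members were higher and 13 lower (15.3% and 14.6% of all genes), the added ones being Rb1 and Mki67 above and Cdk4, Ccne1, Cdt1, Mcm2, Mcm3, Mcm7 and Ccnb2 below, while E2f2 was lost. Without sham 2 and nano-TiO2 3, the libraries with the most hepatocyte and lung transcripts, 2 libraries were left in each group. There edgeR called 0 members and 0 of 14019 genes (0.0% in each direction). At an unadjusted p under 0.05 it held 2 members higher and 2 lower, beside 2239 and 1111 of the 14019 genes. Cdk6, Ccnd2 and Cdk1 stood at 1.46, 0.72 and -0.56 in that fit, and E2f2 at -0.69. Why the calls were lost was not tested.

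TPM divides reads by transcript length and by the library's sum of such values. On log2(TPM + 1) limma called 12 members higher and 0 lower (1 lower at an unadjusted p under 0.05), where 38.0% of 11933 genes were called higher and 0.134% lower and the median gene stood at 0.47. The 12 were Ccnd1, Ccnd2, Cdk6, Mcm4, Rrm1, Rrm2, Mki67, Top2a, Ccna2, Cdc25c, Kif11 and Cenpf. In 16 members all nano-TiO2 libraries lay above all sham libraries in TPM and in 0 below, where 47.2% and 0.310% of the 11933 genes did so. Top2a had 46.1, 43.1 and 49.6 TPM in nano-TiO2 1, 2 and 3, against 20.8, 19.9 and 20.3 TPM in sham 1, 2 and 3. Mki67, which overlapped in CPM, did not in TPM, with 5.77, 3.79 and 4.66 TPM in nano-TiO2 1, 2 and 3, against 1.99, 2.00 and 2.32 TPM in sham 1, 2 and 3. Cdk1, lower in TMM-scaled reads, had 150, 190 and 140 TPM in nano-TiO2 1, 2 and 3, against 168, 129 and 170 TPM in sham 1, 2 and 3, with overlapping groups. The sum over the S members was 559, 845 and 541 TPM in nano-TiO2 1, 2 and 3, against 599, 414 and 455 TPM in sham 1, 2 and 3. The median log2 fold change of the members, 0.43, was close to that of all genes on this scale.

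Other genes of the cycle were read from 4 lists. Of 7 inhibitors of cyclin-dependent kinases 6 were tested, and edgeR, DESeq2 and limma-voom called 0 higher (0 at an unadjusted p under 0.05 in edgeR) and 2 lower. In edgeR these are 0% and 33.3%, beside 15.5% and 12.8% of all tested genes. One was Cdkn1a, the p53 target p21, with 62.5, 47.3 and 64.9 CPM in nano-TiO2 1, 2 and 3, against 71.3, 89.8 and 88.5 CPM in sham 1, 2 and 3 (-0.51, edgeR adjusted p = 0.0461). The other was Cdkn2d at -0.47 (adjusted p = 0.0201). Of 15 tested E2F, pocket protein and DREAM genes 3 were higher and 1 lower (20.0% and 6.67%, near the 15.5% and 12.8% of all tested genes). Those higher were the pocket proteins Rbl1 and Rbl2, relatives of Rb1 that hold cells out of the cycle, at 0.88 and 1.10 (edgeR adjusted p = 0.0186 and 0.0173), and E2f3, an activating E2F, at 0.68 (edgeR adjusted p = 0.0324). Rbl2 had 22.1, 16.2 and 13.6 CPM in nano-TiO2 1, 2 and 3, against 9.38, 5.91 and 8.82 CPM in sham 1, 2 and 3. Lin37, a MuvB subunit of the DREAM complex, was lower at -0.60 (edgeR adjusted p = 0.0317). Rbl1, Rbl2 and E2f3 are long, at 4446, 4674 and 4855 bases, and Cdkn1a and Cdkn2d short, at 1480 and 1413. With the Length trend removed edgeR called 0 genes of either list. At an unadjusted p under 0.05 that fit held 0 inhibitors, and 3 higher and 2 lower of the other list.

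Of 34 further licensing and replication genes 1 was higher and 8 lower (2.94% and 23.5%, beside 15.5% and 12.8% of all tested genes), with a median of -0.27. Cdc7, the kinase that fires licensed origins, was higher at 0.79 (edgeR adjusted p = 0.0391), and thymidine kinase Tk1, the replication protein A subunit Rpa3 and the clamp loader subunit Rfc2 were lower at -0.62, -0.73 and -0.52. Tk1 had 71.5, 76.8 and 73.0 CPM in nano-TiO2 1, 2 and 3, against 120, 122 and 97.9 CPM in sham 1, 2 and 3. Of 43 further mitosis genes 4 were higher and 11 lower (9.30% and 25.6%, beside the same 15.5% and 12.8%), with a median of -0.01. The higher ones named by smallest p were Ect2, Kif23 and Kif15, which act in cytokinesis and on the spindle, at 0.88, 0.56 and 0.72, and the lower ones were securin, Pttg1, the kinase subunit Cks2 and the kinetochore gene Spc24, at -0.71, -0.64 and -0.74. Pttg1 had 133, 143 and 141 CPM in nano-TiO2 1, 2 and 3, against 222, 236 and 226 CPM in sham 1, 2 and 3, and its transcripts average 720 bases. With library totals as the only scaling the 4 lists together held 28 higher and 0 lower calls by edgeR (0 lower at an unadjusted p under 0.05), so that the lower calls above are relative to the median gene. With the Length trend removed edgeR called 0 of their 98 tested genes higher (7 at an unadjusted p under 0.05) and 7 lower, or 7.14%, where 2.82% and 5.64% of all genes were called. Among the lower ones were Pold1 in replication and Bub3 and Espl1 in mitosis; Rbl2 then stood at 0.67 and Pttg1 at -0.19.

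Several members share exon bases with a neighbouring gene on the opposite strand, and the strand setting of the counting is not given in the sources used here, so that reads within the shared bases cannot be assigned to a gene. These include Ccnd3 (361 bases with Bysl), Cdk6 (320 bases with an antisense gene), Ccnd2 (193 and 372 bases with antisense genes), Cdc20 (53 bases with Elovl1), Plk1 (156 bases with an unclassified gene), Cdk4 (641 bases with Tspan31) and Rb1 (209 bases with Lpar6 and 383 with Rcbtb2).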

How the data were processed

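Per the file headers, the deposited Salmon output gives an estimated count of reads per transcript, not scaled, beside TPM values and a transcript Length. In the series table, bins of about 25 bases carry a signal that the authors had divided by a size factor of each library; multiplied back, 100% of values were whole to within 0.001. Tools named in the submitters' processing notes, without roles, are Salmon 1.5.2, HISAT2 2.2.1 and DESeq2 1.34.0, with the build GRCm39; how bins were counted is not given in the sources used here. Titles gave the groups.

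By ID, 115636 of 116747 transcripts matched GENCODE M21 (GRCm38); their reads were added up by gene and rounded. The main test was edgeR 4.0.16 (robust quasi-likelihood, TMM, filterByExpr, group only). Trends over Length and GC were removed per library with mgcv 1.9.3 as offsets. On simulated data with 13699 genes edgeR recovered 61% of log2 changes of 1 and 92% of 2, with 10 false calls. A simulated Length trend gave 2360 false calls when left in and 9 when removed. That trend was linear in log2 Length, had no GC part and was removed over the same Length. It therefore cannot show how well the trend of the real libraries was removed. Alternatives were DESeq2 1.42.0, limma 3.58.1 (TPM with a mean of at least 1), other scalings and filters, and left-out libraries; parts of genes and left-out libraries under the Length fit were added after seeing the data.

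Values per library are given for members called as counted or with Length removed and for Mki67, Top2a, Ccnd1, Ccnd2, Cdk1, Cdk4, Mcm2, Pcna, Ccnb1 and Foxm1; in other lists the 3 smallest p in each direction were eligible. Rb1 and Tyms were added after their values were seen. Members and lists were chosen with earlier results of these data known. Libraries of 1 group differed beyond sampling noise, so none was a copy.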

Additional observations from a re-analysis of the deposited data

How the results depend on the processing

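The counts of members called higher and lower, 3 and 7, were 11 and 0 with library totals only, 6 and 12 by DESeq2, 1 and 2 with the Length trend removed, 0 and 2 with Length and GC removed, 12 and 0 by limma on log2(TPM + 1) and likewise on log2(TPM + 0.1), 6 and 4 in the series table, 0 and 0 without sham 2 and nano-TiO2 3, 1 and 1 in the 5-prime part of bins, 5 and 8 in the 3-prime part, and 2 and 4 with length-scaled TPM counts; the cause was not tested. Leaving out 1 library gave 2 to 5 higher and 1 to 13 lower, and with the Length trend removed 0 to 2 higher and 0 to 11 lower. Over all genes those fits called 864 to 2190 higher and 366 to 2083 lower, and 0 to 759 and 1 to 1460 with the trend removed. The replicate number as a block gave 2 higher and 5 lower (4.76% and 11.9%), with Top2a, Plk1 and Aurka not called. Over all genes the block fit called 1262 higher and 796 lower of 13928, and length-scaled TPM counts gave 1390 and 1042 of 13971. Same-numbered libraries deviated with correlations of -0.39, 0.02 and -0.08, and other pairs with -0.42 to 0.48. These correlations cannot show whether the numbers pair the libraries.

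The median of G1 members, -0.13, was 0.27 with library totals, -0.32 with length-scaled TPM counts, 0.30 and 0.33 on log2(TPM + 1) and log2(TPM + 0.1), and -0.39 to 0.032 with 1 library left out. The median of S members, -0.29, was 0.13, 0.26 and 0.26 with library totals and both TPM scales, and -0.43 to -0.21 with 1 library left out. The median of G2/M members, -0.09, was 0.33, 0.49 and 0.57 on those scales, -0.29 with Length and -0.34 with Length and GC removed, 0.00 (0.0028) in the 5-prime part and -0.14 to 0.00 (-0.00048) with 1 library left out. On each TPM scale 24 of 42 estimates turned upward and 0 downward, and with Length and GC removed 2 turned upward and 10 downward. Among these, the members called in either fit were Ccnd1 (0.62 and 0.63), Cdk1 (0.038 and 0.038), Cdc20 (0.031 and 0.031) and Aurka (0.094 and 0.096) on log2(TPM + 1) and log2(TPM + 0.1), and Top2a (-0.18) and Cenpe (-0.96) with Length and GC removed.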
